A study of Homo sapiens with 6 samples.

Results

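The alpha-like and beta-like globin genes are the 10 members of the alpha-globin cluster (HBZ, HBM, HBA2, HBA1 and HBQ1) and the beta-globin cluster (HBE1, HBG2, HBG1, HBD and HBB). They were chosen by name, through the RefSeq protein accessions of these genes, and the rule used no measured value. Each gene had 1 row among the 109018 rows of the read count table. RNA-seq was done on K562 cells, a human erythroleukaemia line that carries the Bcr-Abl fusion kinase and comes from chronic myeloid leukaemia. There were 2 groups of 3 libraries. The sh-lncRNA-IIRX cells expressed a short hairpin RNA against lncRNA-IIRX, the transcript that the study's paper calls lncRNA-IUR-5, and the sh-luc control cells expressed a hairpin against luciferase. The comparison asks which genes change when this lncRNA is knocked down. All 6 libraries share the K562 background, Bcr-Abl included, and the lentiviral hairpin vector with its GFP marker. The cells are stable infected lines, and it is not stated whether the 3 samples of a group come from separate infections. The labels describe 3 independent experiments, but the second and the third library in both groups share a leading number in their descriptions. What this number means is not stated, and it is called the series number below. Part of the spread behind the p-values may be technical. The mean chi-square per gene between libraries, smaller for more alike ones, was 2.59 for sh-luc 2 and 3. With sh-luc 1 it was 4.75 and 4.46. It was 1.91 for sh-lncRNA-IIRX 2 and 3, and 7.23 and 8.08 with sh-lncRNA-IIRX 1. Whether libraries 2 and 3 come from 1 culture was not tested. The SDs (n = 3), the main fit and the permutation tests treat them as separate.

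Hemoglobin is built from a pair of alpha-like and a pair of beta-like chains, each holding a heme. Along each cluster the genes lie in the order in which they are used in development, with embryonic genes (HBZ, HBE1) nearest the distal enhancers, fetal gamma globin (HBG2, HBG1) next in the beta cluster, and adult genes (HBA2, HBA1, HBD, HBB) further away. K562 cells are widely used as a model of erythroid gene expression because they make embryonic and fetal globins and very little adult beta globin.

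On hg38 the alpha-like genes lie on the plus strand of chromosome 16: HBZ from 152644 to 154503, HBM from 165978 to 166764, HBA2 from 172876 to 173710, HBA1 from 176680 to 177522 and HBQ1 from 180459 to 181179. The beta-like genes lie on the minus strand of chromosome 11: HBE1 from 5268345 to 5269945, HBG2 from 5253188 to 5254781, HBG1 from 5248269 to 5249857, HBD from 5232838 to 5234483 and HBB from 5225464 to 5227071. The counted feature was the coding sequence, 426 to 444 bases long.

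Sequence identity decides which of these genes can be counted apart. The coding sequences of HBA1 and HBA2 were identical over all 429 bases of the GENCODE release 44 reference transcripts, so no coding read can be assigned to one of them. HBG1 and HBG2 differed at 2 of 444 coding bases, an identity of 99.5%. The differences were C227T and C410G, with the HBG1 base first and positions counted from 1 at the A of the start codon. Each is given here within the 29 reference bases around each, with the differing base in capitals, because only reads that cross these letters separate the duplicated fetal genes.
HBG1 at C227T: cttgggagatgccaCaaagcacctggatg
HBG2 at C227T: cttgggagatgccaTaaagcacctggatg
HBG1 at C410G: gaagatggtgactgCagtggccagtgccc
HBG2 at C410G: gaagatggtgactgGagtggccagtgccc
Of the 50-base windows of the gamma coding sequence, 78.5% held neither position and were the same in both genes. HBD and HBB, the closest of the other pairs, were 92.8% identical, with 32 differing bases, and HBE1 was 83.6% identical to HBG1. HBZ and HBQ1 were 68.5% and 73.0% identical to HBA1. HBZ also has a near-identical pseudogene in its cluster. How reads that fit several genes were assigned is not given in the sources used here, and the bases that K562 itself carries at C227T and C410G were not analysed. HBA1 and HBA2 were therefore pooled as alpha globin, and HBG1 and HBG2 as gamma globin.

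The deposited counts fit these limits for alpha globin. HBA2 took 49.8% to 50.2% of the pooled HBA reads in the 6 libraries, and each exact Clopper-Pearson 95% interval held an even split. These intervals cover counting error only. HBG2 took more of the gamma reads than HBG1 in every library. The HBG2 to HBG1 read ratio was 1.43, 1.44 and 1.42 in sh-luc libraries 1 to 3 and 1.45, 1.46 and 1.46 in sh-lncRNA-IIRX libraries 1 to 3. The group means were 1.43 ± 0.0105 and 1.46 ± 0.00357 (SD, n = 3), and the ratios of the groups did not overlap. Some Clopper-Pearson 95% intervals of the HBG2 share did overlap between groups. That of sh-luc library 2 was 58.9% to 59.3%, and that of sh-lncRNA-IIRX library 1 was 59.00% to 59.4%. That of sh-luc library 3, 58.5% to 58.97%, lay under the latter. The exact two-sided permutation test gave p = 0.1, the smallest value that 3 libraries against 3 allow.

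Gamma globin was by far the most abundant globin. The levels below are RPKM, reads divided by the length of the coding sequence and by the library's total, which can be compared between genes. Among all rows of the table, ranked by mean RPKM over the 6 libraries, HBG2 stood 9th and HBG1 14th. HBA2 and HBA1 stood at ranks 87 and 88, HBZ at 280, HBE1 at 467 and HBQ1 at 1178. HBD followed at rank 5631, HBB at 29658 and HBM at 68315. The order gamma, alpha, HBZ, HBE1, HBQ1, HBD, HBB was the same in all 6 libraries, and within a group no gene's libraries overlapped with those of the next. The fetal and embryonic genes thus outranked HBD and HBB.

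**Figure D1:**
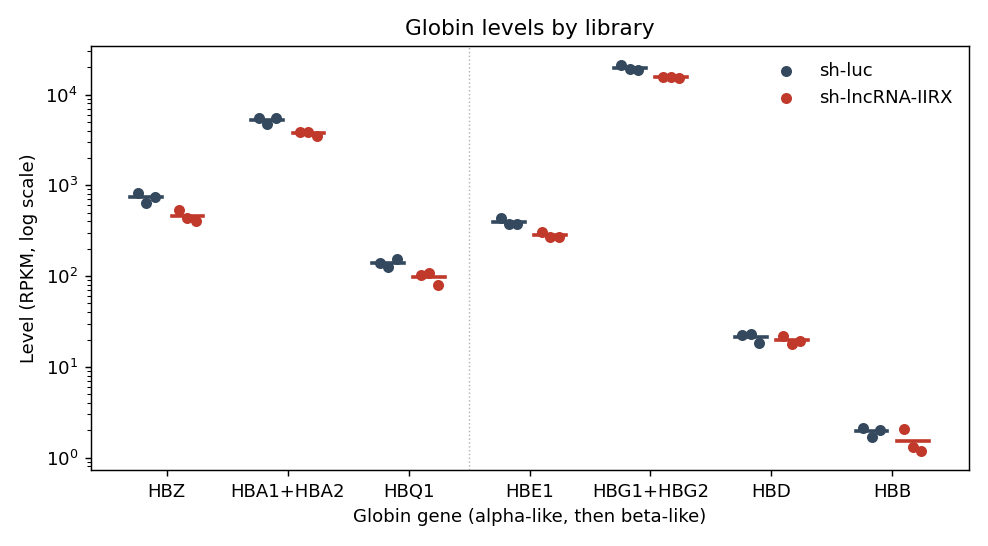
Level of each globin gene in RPKM (log scale) in the 3 sh-luc and 3 sh-lncRNA-IIRX libraries, with HBA1 and HBA2 and HBG1 and HBG2 pooled. Points are libraries and bars are group means. HBZ, alpha, HBQ1, HBE1 and gamma were lower in every sh-lncRNA-IIRX library than in any sh-luc library, while HBD and HBB overlapped.

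Most globin genes were lower in the sh-lncRNA-IIRX cells. Of the 8 genes or pooled pairs, 7 had a mean of at least 10 reads and were tested with edgeR on TMM-scaled counts. Of these, 6 fell (HBZ, HBA, HBQ1, HBE1, HBG and HBD), none rose, HBB did not pass the threshold, and HBM was under the read minimum. Their median log2 fold change was -0.72, beside 0.022 over all 32186 genes and single rows tested. Changes were common in this experiment: 32.1% of all those tested passed an adjusted p of 0.05, with 16.2% lower and 15.9% higher. Below, all genes tested means these 32186 genes and single rows. The shares were larger among genes with a symbol. In a fit of 11422 of them alone, 2392 were lower and 2603 higher. In RPKM, 5 of the 7 had no overlap between groups and were lower after knockdown, against 9.23% of all genes tested. Globin transcripts are short, and of 304 other genes with transcripts under 700 bases 77.0% were called lower as well. What part of the globin falls goes with transcript length was not tested beyond a fit described below. Because the cells were measured in bulk, fewer hemoglobinised cells and less globin RNA per cell cannot be told apart.

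The size of each fall depended on the scaling. With library totals in place of TMM factors, all genes tested shifted up to a median log2 fold change of 0.27, and the split of calls went from 5114 higher and 5209 lower to 10901 higher and 2151 lower. The globin calls under that scaling were 5 lower (all but HBD and HBB) and 0 higher, against a background of 6.68% lower. The fold changes also moved with transcript length, which is described after the single genes. When the trends of each library with the length of transcripts and the GC content of coding sequences were removed, 4 of the 7 (HBZ, HBA, HBQ1 and HBE1) were called lower, against 17.5% of the genes in that fit. All 3 values are given for each gene.

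HBZ encodes zeta globin, the embryonic alpha-like chain. It had 832, 642 and 742 RPKM in sh-luc libraries 1 to 3 and 537, 439 and 408 RPKM in sh-lncRNA-IIRX libraries 1 to 3. Every knockdown library lay under every control library, with means of 739 ± 95.2 and 461 ± 67.5 RPKM (SD, n = 3). It fell by 0.92 on the log2 scale (SE 0.097, edgeR adjusted p = 2.63e-06), the greatest fall among the 7 tested, a level 1.90-fold lower. The log2 fold change was -0.68 with library totals and -0.38 with the GC and length trends removed (edgeR adjusted p = 0.00262).

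Alpha globin (HBA1 and HBA2) is the alpha chain of fetal and adult hemoglobin. Its pooled level was 5474, 4718 and 5474 RPKM in sh-luc libraries 1 to 3 and 3886, 3884 and 3486 RPKM in sh-lncRNA-IIRX libraries 1 to 3. The groups did not overlap, with means of 5222 ± 436 and 3752 ± 230 RPKM (SD, n = 3). Alpha globin fell by 0.72 on the log2 scale (SE 0.078, edgeR adjusted p = 3.76e-06), or 1.65-fold. With library totals the log2 fold change was -0.48, and with the GC and length trends removed it was -0.15 (edgeR adjusted p = 0.0285).

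HBQ1, theta globin, is transcribed in erythroid cells but has no established place in a hemoglobin. It had 140, 127 and 154 RPKM in sh-luc cells and 103, 108 and 80.5 RPKM in the sh-lncRNA-IIRX libraries, again without overlap. It fell by 0.77 on the log2 scale (SE 0.10, edgeR adjusted p = 3.15e-05), or 1.71-fold. The value was -0.53 with library totals and -0.21 with the trends removed (edgeR adjusted p = 0.0431). HBM, mu globin, another alpha-like gene of uncertain role, was read 0, 0 and 1 times in sh-luc cells and 2, 1 and 1 times after knockdown. A count of 3 reads, the limit that a count of 0 allows, corresponds to between 0.224 and 0.335 RPKM in these libraries, so no difference in HBM was detectable at this depth.

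HBE1 encodes epsilon globin, the embryonic beta-like chain. It had 431, 376 and 378 RPKM in sh-luc libraries 1 to 3 and 303, 271 and 267 RPKM in sh-lncRNA-IIRX libraries 1 to 3. The groups did not overlap, with means of 395 ± 31.3 and 280 ± 20.1 RPKM (SD, n = 3). HBE1 fell by 0.74 on the log2 scale (SE 0.079, edgeR adjusted p = 3.27e-06), or 1.67-fold. The value was -0.49 with library totals and -0.27 with the GC and length trends removed (edgeR adjusted p = 0.0165).

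Gamma globin (HBG1 and HBG2), the beta-like chain of fetal hemoglobin, had a pooled level of 21045, 19020 and 18816 RPKM in sh-luc libraries 1 to 3 and 15436, 15748 and 15112 RPKM in sh-lncRNA-IIRX libraries 1 to 3. The knockdown libraries were close to each other and all under the controls, with means of 15432 ± 318 against 19627 ± 1232 RPKM (SD, n = 3). Gamma globin fell by 0.59 on the log2 scale (SE 0.073, edgeR adjusted p = 1.34e-05), or 1.50-fold, and by 0.35 with library totals. With the GC and length trends removed the value was -0.12 and the call was lost (edgeR adjusted p = 0.0802). That loss depended on the fit, since a value of -0.11 passed when a replicate block was added (edgeR adjusted p = 0.0376).

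HBD and HBB were low. HBD, the delta chain of the minor adult hemoglobin, had 22.2, 23.2 and 18.3 RPKM in sh-luc cells and 21.9, 17.9 and 19.0 RPKM in the sh-lncRNA-IIRX libraries. These ranges overlapped, and the exact permutation test on RPKM gave p = 0.4. In the TMM-scaled counts HBD fell by 0.36 on the log2 scale (SE 0.12, edgeR adjusted p = 0.0259). That call was lost with library totals (-0.11, edgeR adjusted p = 0.493), and the direction turned with the trends removed (0.12, edgeR adjusted p = 0.489). It also ended when sh-luc library 1 or 2 or sh-lncRNA-IIRX library 2 or 3 was left out, with log2 fold changes of -0.33, -0.28, -0.33 and -0.36 (edgeR adjusted p of 0.0553 to 0.118).

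HBB, the beta chain of adult hemoglobin, had 22, 16 and 19 reads in sh-luc cells and 29, 14 and 13 reads in the sh-lncRNA-IIRX libraries, among the 21023739 to 31481109 reads of a library. In RPKM these were 2.12, 1.69 and 2.04 against 2.07, 1.30 and 1.18, and the groups overlapped. The log2 fold change was -0.58 with a wide SE of 0.28 (edgeR adjusted p = 0.135), so a fall of the size seen in the other genes could not be told from none at this depth.

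**Figure D2:**
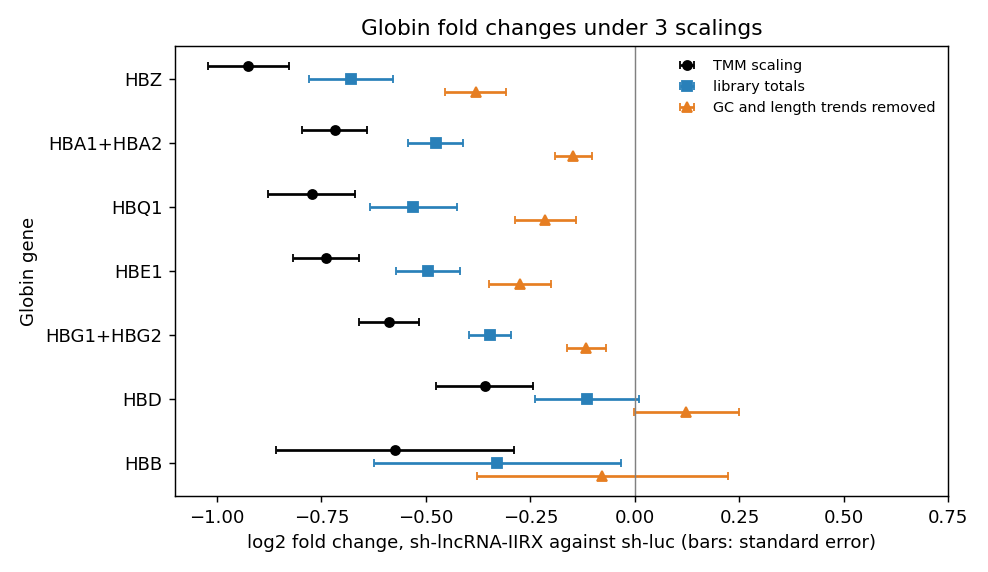
Log2 fold change (sh-lncRNA-IIRX against sh-luc, edgeR) of the 7 tested globin genes or pairs with TMM scaling (circles), library totals (squares) and GC and length trends removed (triangles). Bars are standard errors. HBZ had the lowest value under each of the 3, from -0.92 to -0.38, and the values of HBD ran from -0.36 to 0.12.

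The 10 genes together made up a smaller share of the reads after knockdown. Globin reads were 1.23%, 1.10% and 1.13% of all reads in sh-luc libraries 1 to 3 and 0.894%, 0.902% and 0.854% in sh-lncRNA-IIRX libraries 1 to 3. The means were 1.15 ± 0.0703% and 0.883 ± 0.0257% (SD, n = 3), with no overlap between groups (exact two-sided permutation test, p = 0.1, the smallest possible). The log2 share differed by -0.38 between groups, and by -0.25 when summed RPKM was used in place of reads.

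Alpha-like reads were fewer than beta-like reads in every library. The ratio of alpha-like to beta-like reads was 0.290, 0.273 and 0.320 in sh-luc cells and 0.277, 0.267 and 0.249 in the sh-lncRNA-IIRX libraries. The means were 0.294 ± 0.0240 and 0.265 ± 0.0142 (SD, n = 3), and the ranges overlapped. The log2 ratio differed by -0.15 between groups, beside a pooled SD of 0.0992. The exact permutation test gave p = 0.2, in a design that cannot go below 0.1, so it does not show that the balance was unchanged. Alpha-like reads made up group means of 22.7% of globin reads in sh-luc and 20.9% in sh-lncRNA-IIRX.

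Within the globin reads the gamma pair dominated. In sh-luc cells the mean shares were 75.7% for gamma, 19.5% for alpha, 2.75% for HBZ, 1.52% for HBE1, 0.523% for HBQ1, 0.0821% for HBD and 0.00751% for HBB. In sh-lncRNA-IIRX cells they were 77.6%, 18.2%, 2.24%, 1.41%, 0.470%, 0.0985% and 0.00761% in the same order. Each of these 7 shares overlapped between the groups. With a smallest possible exact permutation p of 0.1, no share could pass 0.05, so no difference in composition could be called or denied by this test. The lowest p adjusted over the 8 shares compared, HBM included, was 0.32.

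The embryonic chains took a smaller part of their own family on average. HBZ was 12.9%, 11.7% and 11.6% of alpha-like reads in sh-luc cells and 11.9%, 9.91% and 10.3% in the sh-lncRNA-IIRX libraries. The ranges overlapped because sh-lncRNA-IIRX library 1 lay above 2 of the control libraries, and the exact permutation test gave p = 0.3. HBE1 was 2.01%, 1.94% and 1.97% of beta-like reads in sh-luc cells and 1.92%, 1.69% and 1.73% in the sh-lncRNA-IIRX libraries. These did not overlap (exact permutation p = 0.1, the smallest possible), although sh-lncRNA-IIRX library 1 lay close to the controls. In both families the first library of the knockdown group was the one nearest the control values.

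**Figure D3:**
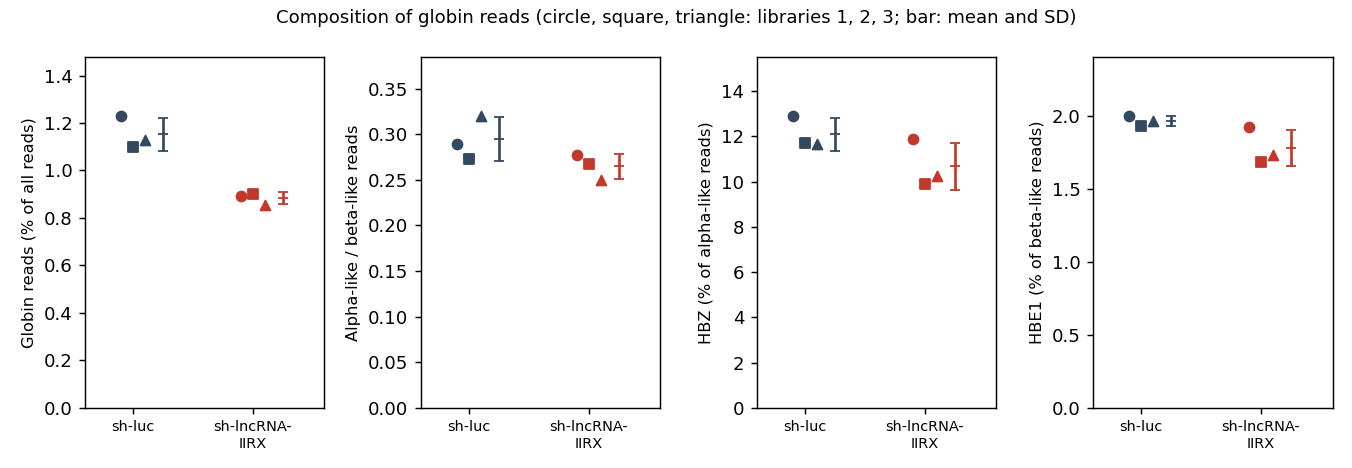
Globin reads as a percentage of all reads, ratio of alpha-like to beta-like reads, HBZ as a percentage of alpha-like reads and HBE1 as a percentage of beta-like reads, by group. Circle, square and triangle are libraries 1, 2 and 3, and bars are the mean and SD. The globin share (1.10% to 1.23% against 0.854% to 0.902%) and the HBE1 share were separate between groups, and the chain ratio and the HBZ share overlapped.

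A further edgeR fit, chosen after the data were seen, set the library sizes to the summed globin reads, so that each gene was measured against globin as a whole. This scaling moved the other genes up, with 22786 of 32186 called higher, 1.38% lower and a median log2 fold change of 0.65. The 1.38% is therefore not a neutral background for a fall. HBZ fell on this scale as well, by 0.29 (log2, SE 0.10, edgeR adjusted p = 0.0125). That call held with a replicate block (-0.30, edgeR adjusted p = 0.00130) and with a term for the series number (-0.30, edgeR adjusted p = 6.24e-05). It still rested on single libraries. The edgeR adjusted p was 0.0521 without sh-luc library 3, 0.0789 without sh-lncRNA-IIRX library 2 and 0.0742 without sh-lncRNA-IIRX library 3, and the log2 value ran from -0.41 to -0.23 over the 6 fits that left out 1 library. The values of the other genes were -0.096 for alpha globin, -0.15 for HBQ1, -0.11 for HBE1, 0.036 for gamma globin, 0.27 for HBD and 0.052 for HBB, none of which passed the threshold with all 6 libraries. HBD passed, with a positive value, when a term for the series number was added (edgeR adjusted p = 0.0476). It also passed without sh-luc library 2 (edgeR adjusted p = 0.0321) and without sh-lncRNA-IIRX library 2 (0.0470).

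Short transcripts in general were lower in the sh-lncRNA-IIRX libraries, and the globin transcripts are short. The 7 tested globin genes or pairs had transcripts of 528 to 798 bases. Of the 304 other genes with transcripts under 700 bases, 77.0% were called lower, with a median log2 fold change of -0.52. From 700 to 1000 bases the median was -0.45 over 448 genes. For the 4315 genes of 4000 bases and more it was 0.22, with 9.80% called lower. Coding GC content moved with the fold change too, from a median of 0.126 for genes under 45% GC to -0.14 for those of 60% and more, and the coding GC content of HBZ, HBA and HBQ1 was 65.0%, 64.8% and 68.1%. Whether length or GC content sets any part of the globin change was not tested beyond the fit with both trends removed.

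**Figure D4:**
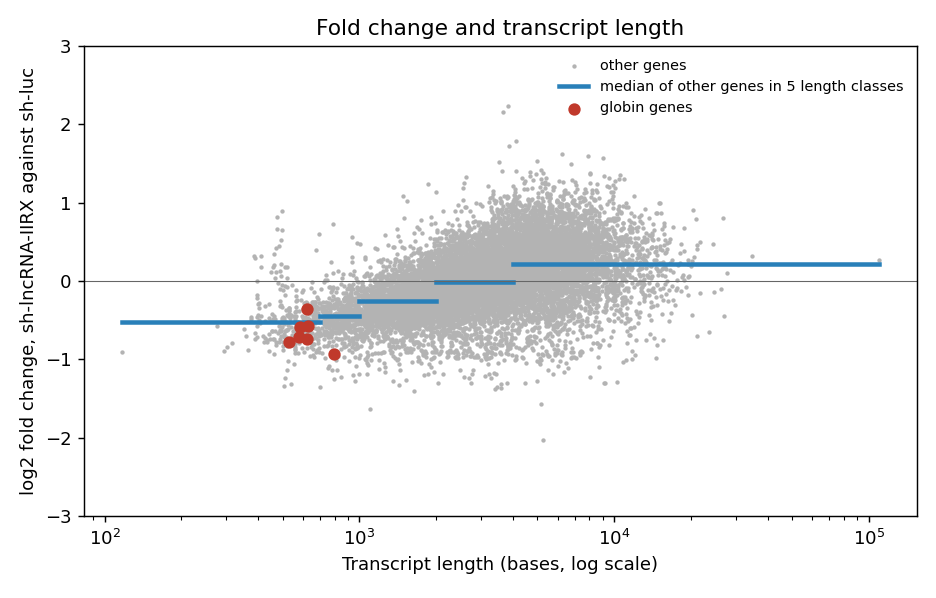
Log2 fold change (sh-lncRNA-IIRX against sh-luc, edgeR) against transcript length in bases (log scale) for other genes (grey), with the median of 5 length classes (blue lines) and the 7 globin genes or pairs (red). The class medians ran from -0.52 under 700 bases to 0.22 from 4000 bases, and the globin points lay at the short end, between -0.92 and -0.36.

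The genes that act on globin transcription did not fall with the globins as a group. Of 42 activators, repressors and stage-specific factors, 41 were tested, and 10 were higher, 3 lower and 28 not called, beside 15.9% higher and 16.2% lower over all genes tested. Their median log2 fold change was 0.10. All genes of this and the later lists have a symbol. Of the 11422 genes with a symbol fitted alone, 2603 were higher and 2392 lower, larger shares than over all genes tested. BACH1, a heme-sensing repressor that binds globin enhancers, rose by 1.06 on the log2 scale (SE 0.11, edgeR adjusted p = 3.08e-06). IGF2BP3 (0.80), a fetal RNA-binding protein, HIC2 (0.80), a repressor linked to fetal hemoglobin, TAL1 (0.67), a core erythroid factor, and MYB (0.53), a progenitor factor that holds gamma globin low, also rose. These 5 stayed higher with the GC and length trends removed, at 0.36 to 0.78. The 3 lower genes were GATA1 (-0.40), the master erythroid factor, NFE2 (-0.35), which binds the beta-globin enhancers, and USF1 (-0.31). None of these 3 passed with library totals or with the trends removed. Library totals gave 27 higher and 0 lower, beside 33.9% higher and 6.68% lower over all genes tested. With the trends removed 9 were higher and 4 lower, beside 1809 higher and 1994 lower of 11422 genes in that fit.

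The genes that assemble hemoglobin and supply its heme were mixed. Of 21, 20 were tested, and 5 were higher and 9 lower (15.9% and 16.2% over all genes tested), with a median of -0.086. AHSP, the chaperone of free alpha chains, had 116, 62 and 64 reads in sh-luc cells and 92, 59 and 59 in the sh-lncRNA-IIRX libraries, and fell by 0.74 on the log2 scale (SE 0.19, edgeR adjusted p = 0.00677). It did not pass with library totals or with the trends removed. The 5 with the smallest adjusted p were BLVRA (-0.62) and BLVRB (-0.59), which reduce biliverdin, HMOX2 (-0.54), which degrades heme, ABCB10 (0.64), a mitochondrial transporter needed for heme synthesis, and CPOX (0.49), an enzyme of that synthesis. With the trends removed 4 of the list were higher and 2 lower, beside 1809 higher and 1994 lower of 11422 in that fit. With library totals 7 were higher and 3 lower, beside 33.9% and 6.68% over all genes tested. HMOX1 was at 0 in all libraries.

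Genes beside the clusters were followed as well. Of 16 neighbours of the alpha cluster, 13 were tested, and 6 were lower and none higher (16.2% and 15.9% over all genes tested), with a median of -0.17. MRPL28 (-0.64), a mitochondrial ribosomal protein, SNRNP25 (-0.59), a minor spliceosome protein, MPG (-0.52), a DNA repair glycosylase, LUC7L (-0.38), a splicing factor, and POLR3K (-0.47), an RNA polymerase III subunit, led these calls. With the trends removed MRPL28 alone stayed lower, and NME4, another of the 6, was called higher at 0.20. In that fit 1994 of 11422 genes were lower and 1809 higher. With library totals 3 were lower and 1 higher, beside 6.68% lower and 33.9% higher over all genes tested.

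Of 24 neighbours of the beta cluster, 12 were tested, and 3 were higher and 1 lower (15.9% and 16.2% over all genes tested), with a median of 0.19. OR51B5 and OR51B4 are olfactory receptor genes on the HBE1 side of the cluster, starting 70.4 and 31.1 kb from it. OR51B5 had 301, 304 and 279 reads in sh-luc cells and 720, 569 and 599 in the sh-lncRNA-IIRX libraries, a rise of 0.56 on the log2 scale (SE 0.095, edgeR adjusted p = 0.000282). OR51B4 had 196, 213 and 211 reads against 450, 310 and 361, a rise of 0.31 (SE 0.11, edgeR adjusted p = 0.0369). The rise of both was 0.89 and 0.64 with the trends removed, opposite in direction to HBE1 and HBZ in the same fit. TRIM5, an antiviral factor, fell by 0.80, and by 0.93 with the trends removed. STIM1, a calcium sensor that lies much further away on the HBB side, rose by 0.30, a call that ended with the trends removed (0.18, edgeR adjusted p = 0.138). The globin relatives outside the clusters were absent or nearly so, with MB and NGB at 0 in every library and CYGB and ADGB under the read minimum.

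The erythroid markers had reads in every library, but SLC4A1 and EPB42 were very low. SLC4A1 had means of 0.46 RPKM in sh-luc and 0.42 RPKM in sh-lncRNA-IIRX, and EPB42 had 0.65 and 0.70 RPKM. Of 12 erythroid markers all 12 were tested, with 4 higher and 3 lower (15.9% and 16.2% over all genes tested) and a median of 0.035. TFRC (1.07), EPB41 (0.45) and RHAG (0.28) were among those that rose, while GYPC (-0.36), GYPB (-0.33) and KEL (-0.26) were lower. With library totals 6 were higher and 0 lower, beside 33.9% higher and 6.68% lower over all genes tested. The summed level of the list was 1298 to 1416 RPKM in sh-luc and 1554 to 1816 RPKM in sh-lncRNA-IIRX, the opposite direction to the globin share. Summed megakaryocyte markers were 63.1 to 72.9 RPKM in sh-luc and 41.5 to 44.3 RPKM in sh-lncRNA-IIRX. Nearly all of these sums was GP6, with means of 64.1 and 41.1 RPKM. Of 3 tested megakaryocyte markers 2 (GP6 and ITGA2B) were lower, and PF4, PPBP and SELP were at 0. Of the granulocyte and monocyte markers MPO, ELANE, S100A8 and S100A9 were at 0, and sums were 80.6 to 93.1 against 91.7 to 95.7 RPKM. Nearly all of these sums was LYZ, with means of 85.5 RPKM in sh-luc and 92.6 RPKM in sh-lncRNA-IIRX. Lymphocyte markers summed to 4.07 to 5.59 against 3.93 to 4.34 RPKM, and fibroblast and epithelial markers to 457 to 477 against 449 to 487 RPKM, with 1 of 2 tested lower (KRT8). The part of these markers in the globin result was not tested.

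Over the 6 libraries, the genes whose centred log2 counts, after TMM scaling, lay closest to those of the globin sum were SERPINB6, CDK11A, UBE3B, NENF and NDUFB11. Their Euclidean distances were 0.069 to 0.087 among 3522 genes with a mean of at least 1000 reads. Their log2 fold changes were -0.67, -0.66, -0.61, -0.61 and -0.61 in the same order. These genes were picked by their likeness over the same libraries, so falls close to those of the globins follow from the choice.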

How the data were processed

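Total RNA of K562 cells was sequenced in 6 libraries, 3 per group, grouped by their labels. The authors trimmed the reads and mapped them to hg38, and the submitters' processing notes name CASAVA 1.8, Trimmomatic 0.32, Bowtie2 2.1.0 and SAMtools 0.1.19. The deposited table gives unnormalized read counts per RefSeq protein accession and the authors' RPKM, which was checked to equal reads scaled to the row's coding length and to the library's total in every row. A second deposited table with the authors' pooled values, fold changes and p-values of 39 accessions was not used. No row counts the targeted lncRNA, whose knockdown was not analysed here.

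Reads were summed per gene, with HBA1 and HBA2 and HBG1 and HBG2 pooled. Gene symbols were matched for 64.7% of rows, holding 84.4% of reads, and other rows were kept single. The 32186 genes and rows with a mean of at least 10 reads were tested with edgeR 4.0.16 (R 4.3.3, TMM factors 0.909 to 1.14, quasi-likelihood test, two-sided, Benjamini-Hochberg adjustment over all of them, threshold 0.05). Shares and RPKM were compared by exact two-sided permutation tests (scipy 1.17.1). Alternatives used limma 3.58.1 on log2(RPKM + 0.1), DESeq2 1.42.0 and mgcv 1.9.3 for trends with transcript length and coding GC content, with values for 98.9% of the 11554 genes with a symbol. Total reads were 21023739 to 31481109 per library, and the biological coefficient of variation was 8.44%. Coding sequences came from GENCODE release 44 and coordinates from RefSeq on the same build. Scripts were tested on simulated counts.

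The members were taken by gene name, without a threshold on values, but they and the lists were chosen with earlier results of these data known. Named genes are all members, and of each list at most the 5 with the smallest adjusted p with values. Any gene named beyond these was picked with its values in view. For likeness, the 5 genes nearest to the globin sum are named. Some marker genes are not reported here.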

Additional observations from a re-analysis of the deposited data

How the results depend on the processing

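Over the alternatives run (other scalings, tests, filters, covariates and left-out libraries, apart from scaling to globin reads), HBZ, HBA, HBQ1 and HBE1 were called lower under each, HBG under each but one, and no globin gene was called higher. HBG did not pass with the GC and length trends removed (-0.12). The log2 fold change of HBD lost its call with library totals (-0.11), limma with a pseudocount of 0.1 (-0.11) or 1 (-0.11), and libraries 2 and 3 summed (-0.35). It ran from -0.46 to -0.28 when single libraries were left out, and turned to 0.12 with the trends removed, with or without the replicate block. The genes past the threshold were 10323, 12559 with the replicate block, 13238 with the series term and 8097 with DESeq2. They were 4995 among the genes with a GC value, 3803 with the trends removed and 5131 with trends removed and replicate block. The globin share of reads differed by -0.38 on the log2 scale, and by -0.25 in RPKM. These causes were not tested beyond the settings themselves. The deviations of libraries with equal numbers correlated at 0.31, 0.087 and 0.011 for libraries 1, 2 and 3. The crossed pair of sh-luc library 2 with sh-lncRNA-IIRX library 3 reached 0.20. Equal numbers therefore did not clearly pair the samples beyond library 1. The replicate block changed no globin call with TMM scaling. With the trends removed it brought back that of HBG (-0.11, edgeR adjusted p = 0.0376), so that 5 in place of 4 were lower. Depth limits HBB and HBM. The GC and length correction, the summed and within-series fits and the scaling to globin reads were chosen after seeing the data.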
